A study of Mus musculus with 4 samples.

Results

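Proteoglycans and the enzymes that build and break down chondroitin sulfate were described in 4 mouse pancreatic cancer cell lines. The list held 41 genes chosen by function: 19 core proteins, 11 genes of chain synthesis, 7 sulfotransferases and 4 breakdown enzymes. Each gene was matched to the symbol of the array annotation through transcript clusters (the probe groups of the array) with 1 symbol, and the cluster with the highest mean signal stood for the gene. By this rule 40 of the 41 genes were measured, among 19938 genes on the array. The hyaluronidase gene Hyal1 had no cluster of its own, since its clusters carry 2 symbols.

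The lines were grown from pancreatic tumors that were minced, digested with Liberase and cultured, and RNA of each line was run on 1 Affymetrix Mouse Gene 1.0 ST array. TPAC lines (K459 and TCPA18654) carried the Ela1-TGF-α transgene with p48-Cre and floxed alleles of both trp53 and RelA (lox/lox), and TPC lines (TPC18645 and TPC20223) carried the same transgene and Cre with floxed trp53 (lox/lox) alone. The TGF-α transgene, driven by the acinar elastase-1 promoter, the Cre of the pancreatic lineage and the floxed p53 alleles were thus shared by all 4 lines, and the floxed RelA (p65) alleles were what the TPAC genotype added. The labels spell the Cre driver Ptg1a+/CRE and the RelA allele p65fl/fl, and give neither the age of the mice nor a sort of cancer cells. No source used here says if separate mice gave the lines of 1 genotype, so the p-values measure the spread between lines only. The study describes invasion of nerves in mice of both genotypes and compared TPAC with TPC cells to ask what accompanies the more severe form in TPAC mice.

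Proteoglycans are core proteins that carry long, negatively charged sugar chains. The leucine-rich cores decorin, biglycan, fibromodulin, lumican and osteoglycin bind collagen, the large cores such as versican bind hyaluronan or sit in the basement membrane, and the syndecans, glypicans and NG2 hold chains at the cell surface, where they act as co-receptors of growth factors. Chondroitin sulfate starts with xylose on a serine of the core, is lengthened by alternating glucuronic acid and N-acetylgalactosamine, is sulfated in the Golgi and is taken apart in lysosomes. In pancreatic cancer much of the proteoglycan matrix is known to be laid down by stromal fibroblasts, and cancer cells make a part of it themselves.

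Values are log2 signals made by RMA, so that 1 unit is a 2-fold step. They are compared within a gene and never between genes, whose probes differ. The array medians were 7.24 and 7.21 in the TPAC lines and 7.19 and 7.26 in the TPC lines. RMA gives no detection call, and 6 members whose mean signal did not exceed the 40th percentile of all genes (Lum, Ncan, Bcan, Chst3, Chst7 and Ust) are called dim. The same limit is used for genes outside the member list. Rela, the gene of p65, read 10.82 and 11.10 in the TPAC lines and 11.12 and 10.70 in the TPC lines, so that its cluster did not separate the genotypes. Whether its probes lie in the floxed part was not tested.

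TPC20223 stood apart from the other 3 lines in its cell type markers. The ductal keratin Krt19 read 12.65 and 11.79 in the TPAC lines and 11.74 in TPC18645, against 6.08 in TPC20223, and the adhesion gene Cdh1 read 12.62 and 12.68 in the TPAC lines and 12.57 in TPC18645, against 6.96 in TPC20223. Krt19 and Cdh1 were thus low in this line, but not all epithelial markers were. Sox9, a ductal factor, read 11.56 and 10.14 in the TPAC lines and 10.21 and 10.89 in the TPC lines. TPC20223 was the lowest line for 12 of 15 ductal and epithelial markers (38.8% of all genes), and not for Sox9, Spint1 and Esrp1. Of the 15, 7 were lowest in TPC20223 by a log2 gap of at least 1 (2.95% of all genes). Of 12 fibroblast markers, 9 were highest in TPC20223 (28.1% of all genes), 7 of them by such a gap (4.25% of all genes). Thy1 and the dim Dpt were instead highest in K459 by such a gap. Thy1 read 8.86 in K459 and 7.23 in TPC20223, and Dpt 8.81 and 5.15. K459 was the highest line by such a gap for 8 of the epithelial markers (197 of all 19938 genes). The fibroblast list had a median signal of 8.68 in K459, 7.28 in TCPA18654, 7.32 in TPC18645 and 10.11 in TPC20223. Of 12 markers of a mesenchymal state, 11 were highest in TPC20223 (28.1% of all genes), 3 of them by such a gap (4.25% of all genes). Vim, the mesenchymal filament gene, had the smallest range of the 12, with 13.79 and 13.83 in the TPAC lines and 13.89 and 13.91 in the TPC lines. TCPA18654 and TPC18645, although of different genotype, read nearly alike: 54 genes (0.271%) differed between them by a log2 difference of 1 or more. In bulk samples fewer cells of a type and less RNA per cell cannot be told apart.

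No member passed the test between TPAC and TPC, and most members had the lower mean in the TPAC lines. By limma with Benjamini-Hochberg adjustment over the 19938 genes, the call needed an adjusted p no higher than 0.05 together with a difference of at least 0.58 log2 units, and 0 of 40 members were called (background 0% in each direction). The smallest unadjusted p of a member was 0.0878, for the sulfatase gene Arsb, and the adjusted p-values were 0.989 or higher. At an unadjusted p under 0.05 with the limit on the difference, 0 members passed in either direction, against 0.191% of all genes higher and 0.231% lower in TPAC. Without that limit, 0 members passed, against 0.782% of all genes. Of the 40 members, 35 had a lower and 4 a higher mean in TPAC lines, with 1 equal, while over all genes 46.7% were lower and 52.2% higher. The median log2 difference was -0.29 over the members and 0.02 over all genes. Core proteins had a median difference of -0.85 with 17 of 19 lower, and enzymes had -0.19 with 18 of 21 lower.

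The count of lower means depended on TPC20223. Without that line 25 of 40 members had a lower mean in TPAC, with a median of -0.14, against 52.6% of all genes and -0.015. Without TPC18645 there were 34 of 40, with a median of -0.75, against 43.1% of all genes and 0.045. For 9 members both TPAC lines lay below both TPC lines (13.3% of all genes did so), and for 0 members both lay above (13.7% of all genes). These 9 were Fmod, Hspg2, Sdc3, Gpc1, Cspg4, Xylt2, Dse, Chst14 and Arsb. In each the TPC line next to the TPAC lines was TPC18645, and the gap to it was between 0.05 and 0.19. For a single gene, 2 lines against 2 allow an exact permutation p of no less than 0.333 (two-sided).

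**Figure D1:**
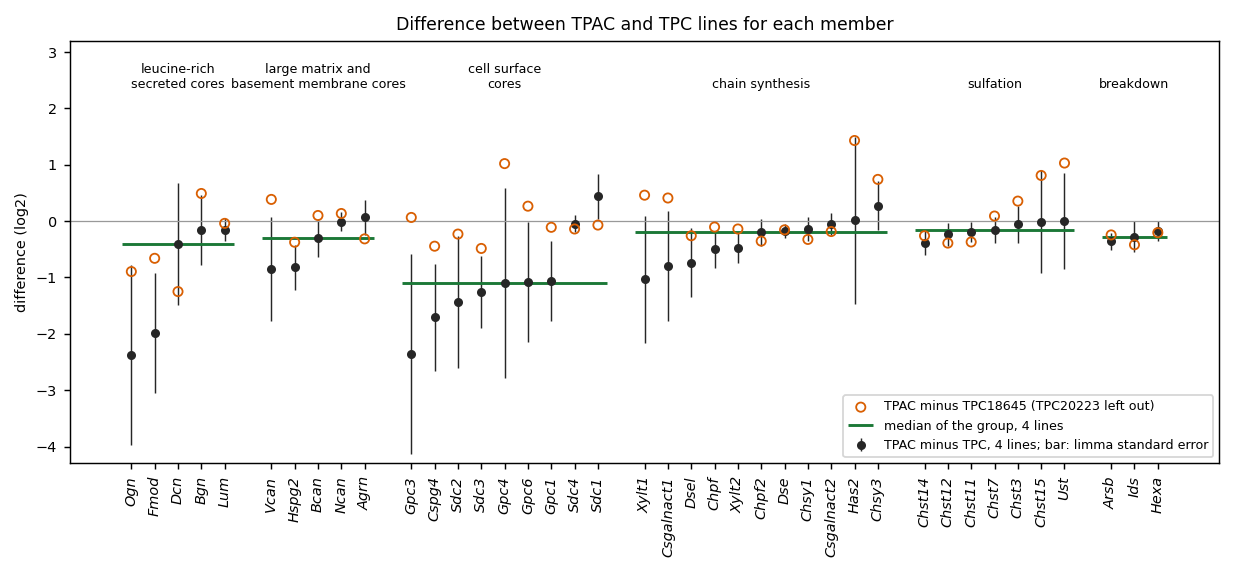
Difference in log2 signal between TPAC and TPC lines for each of the 40 measured members, by role. Black points are the mean of 2 TPAC lines minus the mean of 2 TPC lines with the limma standard error as a bar, open circles are the same TPAC mean minus TPC18645 alone, and green lines are the medians of the groups. The group medians lie between -0.17 and -1.10, and many open circles lie nearer to 0 than the black points.

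Of the leucine-rich secreted cores, Ogn, Fmod, Dcn and Bgn differed between lines by a log2 range of more than 1. All 5 had a lower mean in TPAC, with a median difference of -0.41, and none was called. Ogn, which codes for osteoglycin (mimecan), read 9.31 in K459 and 6.12 in TCPA18654, against 8.61 in TPC18645 and 11.56 in TPC20223. TCPA18654 was the low line by a gap of 2.49 and TPC20223 the high line, so the genotypes overlapped (difference -2.37 ± 1.59 SE, limma adjusted p = 0.989). Fmod, whose product fibromodulin guides collagen fibril assembly, read 6.40 and 7.54 in the TPAC lines and 7.63 and 10.29 in the TPC lines. The genotypes did not overlap, but TCPA18654 and TPC18645 lay 0.09 apart, while K459 was low by 1.14 and TPC20223 high by 2.66 (difference -1.99 ± 1.07 SE).

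Decorin and biglycan, close relatives that both bind collagen, ran in opposite directions over the lines. Dcn read 8.57 in K459 and 10.99 in TCPA18654, against 11.03 in TPC18645 and 9.35 in TPC20223, and Bgn read 13.30 in K459 and 12.24 in TCPA18654, against 12.28 in TPC18645 and 13.57 in TPC20223. K459 and TPC20223 were thus the lines with less Dcn and with more Bgn signal, 1 from each genotype. Dcn was the only one of the 40 members with TPC18645 and TCPA18654 as its highest lines by a gap of 1 or more. The difference between genotypes was -0.41 ± 1.08 SE for Dcn and -0.16 for Bgn. Lum, the dim cluster of lumican, stayed between 4.27 and 4.72 in all 4 lines.

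Among the large matrix and basement membrane cores, Vcan and Hspg2 were high in TPC20223 and the others varied less. Vcan, the gene of the hyaluronan-binding core versican, read 9.90 and 9.41 in the TPAC lines and 9.27 and 11.74 in the TPC lines, so that TPC18645 was the lowest line and TPC20223 the highest by 1.84. Hspg2, the gene of the basement membrane core perlecan, read 10.35 and 10.86 in the TPAC lines and 10.98 and 11.87 in the TPC lines. The genotypes did not overlap for Hspg2, with a gap of 0.12 between TCPA18654 and TPC18645, and the difference was -0.82 ± 0.39 SE. Agrn, which codes for agrin, the heparan sulfate core of basement membranes and nerve-muscle synapses, had its lowest signal in TPC20223. It read 9.26 and 9.35 in the TPAC lines and 9.62 and 8.86 in the TPC lines. The dim clusters of Ncan and Bcan, cores of the nervous system, had differences of -0.01 and -0.30 with ranges over the lines of 0.29 and 0.86. The group's median was -0.30, with 4 of 5 lower, and it was 0.10 without TPC20223.

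The cell surface cores had the lowest group median between TPAC and TPC, at -1.10 with 8 of 9 lower, and the widest median range over the lines, 2.97. In 7 of the 9, TPC20223 was the highest line by a log2 gap of 1 or more, against 4.25% of all genes. These were Sdc2, Sdc3, Gpc1, Gpc3, Gpc4, Gpc6 and Cspg4. The group's median signal was 9.35 in K459 and 8.26 in TCPA18654, against 9.41 in TPC18645 and 10.99 in TPC20223. The group median was -2.42 without TPC18645 and -0.11 without TPC20223, where the leucine-rich cores had the lowest group median, -0.66. No cell surface core was called with all 4 lines.

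Glypicans are bound to the membrane by a lipid anchor and carry heparan sulfate. Gpc3 read 5.97 and 6.24 in the TPAC lines and 6.04 and 10.88 in the TPC lines, so that 3 lines of both genotypes lay within 0.27 of each other and TPC20223 was 4.64 above the next. Gpc4 read 9.35 and 7.53 in the TPAC lines and 7.42 and 11.65 in the TPC lines, with K459 between the near-equal TCPA18654 and TPC18645 and the high TPC20223. Gpc6 was likewise highest in TPC20223 and next in K459, with 9.13 and 8.02 in the TPAC lines and 8.31 and 10.99 in the TPC lines. Gpc1 read 9.56 in both TPAC lines and 9.67 and 11.58 in the TPC lines, where TPC20223 was the single line that differed. The differences between genotypes were -2.36 ± 1.78 SE for Gpc3, -1.10 ± 1.69 for Gpc4, -1.08 ± 1.07 for Gpc6 and -1.07 ± 0.71 for Gpc1.

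Syndecans span the membrane, and their 4 genes had different orders of lines. Sdc4, a core of cell adhesions, read 11.23 and 11.41 in the TPAC lines and 11.46 and 11.27 in the TPC lines, a range of 0.23 that was the smallest of all 40 members. Sdc1, the syndecan of epithelial cells, read 11.59 and 11.39 in the TPAC lines and 11.56 and 10.54 in the TPC lines. It was lowest in TPC20223 by 0.85 and was the member with the largest positive difference, 0.44. Sdc2, a syndecan of mesenchymal cells, read 10.34 and 8.26 in the TPAC lines and 9.53 and 11.94 in the TPC lines, and Sdc3, known from neural tissue, read 8.57 and 9.28 in the TPAC lines and 9.41 and 10.97 in the TPC lines. Both were thus highest in TPC20223, where Sdc1 and Agrn were lowest. Cspg4, the gene of the transmembrane chondroitin sulfate core NG2 known from pericytes and glial precursors, read 6.93 and 7.44 in the TPAC lines and 7.63 and 10.15 in the TPC lines. Its genotypes did not overlap, with a gap of 0.19, and its difference was -1.71 ± 0.95 SE.

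**Figure D2:**
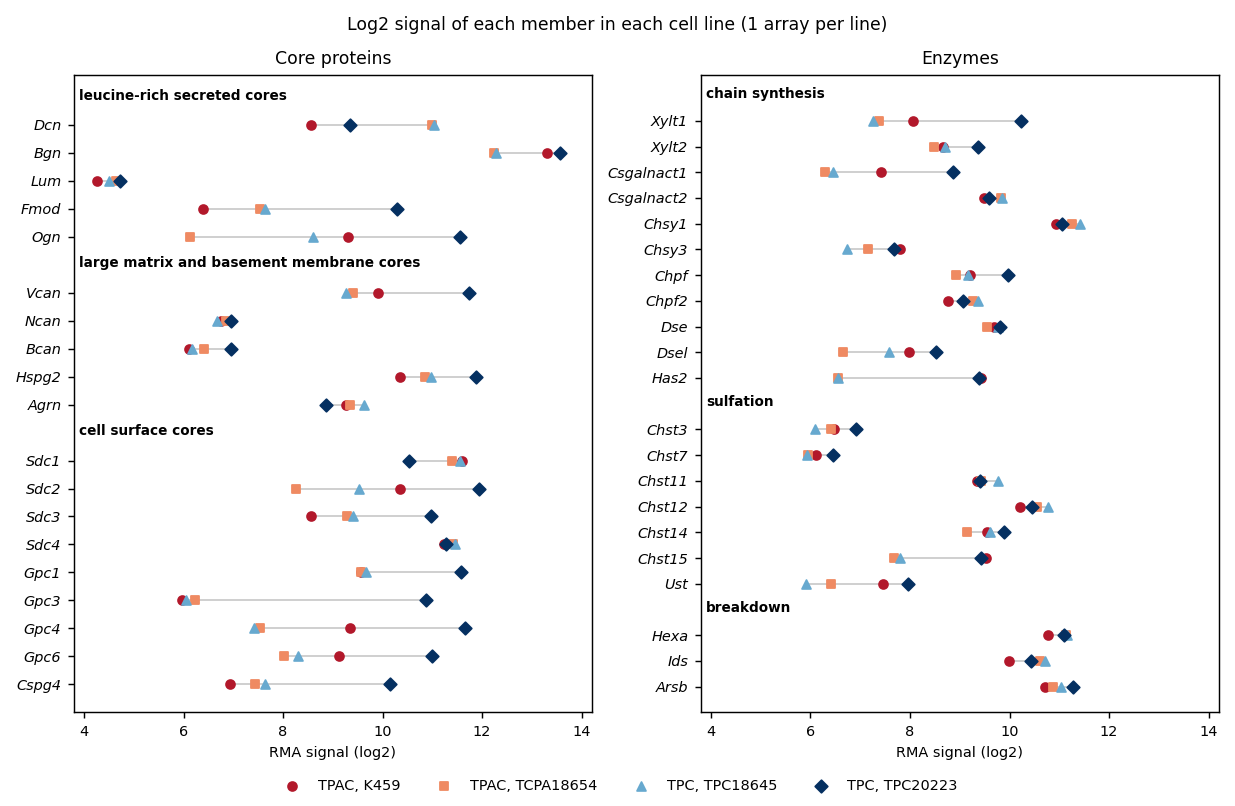
RMA log2 signal of each measured member in each of the 4 lines, with core proteins on the left and enzymes on the right. Red circles and orange squares are the TPAC lines, blue triangles and dark diamonds the TPC lines, and grey bars span the range. TPC20223 (dark diamonds) is the highest line for 15 of 19 cores, farthest from the next line for Gpc3 at 10.88, while the 3 breakdown enzymes lie close together.

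Promoter windows are shown for the core genes in which TPC20223 stood above the next line by a log2 gap of 2 or more, and for Sdc4, the member with the smallest range. The windows are RefSeq sequences of GRCm38.p6 on the gene's own strand, from 250 bases before to 50 bases after the start. Capitals mark matches to 3 motifs: CAGGTG, the E-box read by Snail and Zeb factors, TGANTCA, the AP-1 motif, and GGGCGG, the GC box. Both strands were read, and a match on the other strand shows as its reverse complement.
Gpc3, chrX:52613925-52614224, minus strand: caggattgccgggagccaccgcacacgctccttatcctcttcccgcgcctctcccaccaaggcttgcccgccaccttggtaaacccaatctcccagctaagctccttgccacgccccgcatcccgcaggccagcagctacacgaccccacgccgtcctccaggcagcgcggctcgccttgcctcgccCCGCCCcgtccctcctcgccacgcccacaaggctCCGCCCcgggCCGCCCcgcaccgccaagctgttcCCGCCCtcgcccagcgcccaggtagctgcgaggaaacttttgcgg
Gpc4, chrX:52164874-52165173, minus strand: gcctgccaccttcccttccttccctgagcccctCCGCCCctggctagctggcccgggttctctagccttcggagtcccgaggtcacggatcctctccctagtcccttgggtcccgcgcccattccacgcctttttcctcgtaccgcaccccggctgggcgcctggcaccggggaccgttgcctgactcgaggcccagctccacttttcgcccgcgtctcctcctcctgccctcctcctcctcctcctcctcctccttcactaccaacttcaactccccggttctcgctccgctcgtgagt
Cspg4, chr9:56864854-56865153, plus strand: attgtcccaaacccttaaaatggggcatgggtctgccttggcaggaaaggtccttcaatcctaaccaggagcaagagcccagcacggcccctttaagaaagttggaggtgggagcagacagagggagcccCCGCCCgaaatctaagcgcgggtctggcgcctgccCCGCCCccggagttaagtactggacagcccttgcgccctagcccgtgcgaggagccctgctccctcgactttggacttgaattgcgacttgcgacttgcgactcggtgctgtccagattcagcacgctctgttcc
Fmod, chr1:134037004-134037303, plus strand: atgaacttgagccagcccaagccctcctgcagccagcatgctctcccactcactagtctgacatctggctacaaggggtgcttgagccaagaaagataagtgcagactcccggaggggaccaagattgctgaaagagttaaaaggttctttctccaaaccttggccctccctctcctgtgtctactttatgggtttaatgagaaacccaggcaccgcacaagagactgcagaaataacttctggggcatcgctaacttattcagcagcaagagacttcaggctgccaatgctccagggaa
Ogn, chr13:49607765-49608064, plus strand: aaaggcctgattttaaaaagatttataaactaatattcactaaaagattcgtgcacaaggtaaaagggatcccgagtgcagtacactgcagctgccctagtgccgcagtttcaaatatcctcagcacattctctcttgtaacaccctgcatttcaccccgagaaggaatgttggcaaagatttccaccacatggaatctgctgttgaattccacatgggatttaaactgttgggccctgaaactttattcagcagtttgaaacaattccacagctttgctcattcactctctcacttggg
Sdc4, chr2:164443139-164443438, minus strand: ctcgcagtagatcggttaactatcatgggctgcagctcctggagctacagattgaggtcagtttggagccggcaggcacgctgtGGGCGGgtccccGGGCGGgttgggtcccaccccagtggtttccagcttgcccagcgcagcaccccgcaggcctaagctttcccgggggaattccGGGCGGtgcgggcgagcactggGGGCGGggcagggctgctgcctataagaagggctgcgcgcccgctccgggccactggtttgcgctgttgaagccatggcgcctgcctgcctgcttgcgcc

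The windows of Gpc3, the member in which TPC20223 lay farthest above the next line, and of Sdc4 held 4 GC boxes each, with GC contents of 70.7% and 67.7%. The window of Gpc4 held 1 and that of Cspg4 held 2 GC boxes, and those of Fmod (51.0% GC) and Ogn (42.3% GC) held none. Of the 40 measured members 31 had a window in the table, 35 windows in all. A GC box occurred in 29 of the 35 windows (82.9%), against 35.7% of all 32851 windows of the same length. The CAGGTG motif occurred in 3 (8.57%), against 20.2% of all windows, and the AP-1 motif in 1 (2.86%), against 7.81%. A match is a description of these letters and not a bound site.

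Of the genes of chain synthesis, Xylt1 and Csgalnact1, which start chains, were high in TPC20223, and their relatives Xylt2 and Csgalnact2 differed less between lines. The group of 11 had a median difference of -0.20, with 9 lower in TPAC and 0 called. Xylt1, one of the pair of xylosyltransferase genes that put the first sugar on the core, read 8.06 and 7.38 in the TPAC lines and 7.26 and 10.24 in the TPC lines, with TPC20223 high by 2.18. Its relative Xylt2 read 8.66 and 8.48 in the TPAC lines and 8.71 and 9.37 in the TPC lines, and the genotypes were separated by 0.05. Csgalnact1, the N-acetylgalactosaminyltransferase that commits the chain to chondroitin, read 7.42 and 6.30 in the TPAC lines and 6.45 and 8.86 in the TPC lines, with TPC20223 high by 1.44. Csgalnact2 did not follow it and lay between 9.48 and 9.84 in all lines. The difference between genotypes was -1.03 for Xylt1 and -0.80 for Csgalnact1, against -0.47 for Xylt2 and -0.06 for Csgalnact2.

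Chsy1, the main chondroitin synthase, read 10.94 and 11.25 in the TPAC lines and 11.42 and 11.06 in the TPC lines, and its partner Chpf2 had the same order, with 8.77 and 9.26 in the TPAC lines and 9.37 and 9.06 in the TPC lines. In both, K459 was lowest and TPC18645 highest. Chpf read 9.20 and 8.93 in the TPAC lines and 9.17 and 9.96 in the TPC lines, so that TPC20223 was high by 0.76. Chsy3 read 7.79 and 7.15 in the TPAC lines and 6.73 and 7.67 in the TPC lines, with a difference of 0.27. The epimerase genes, which turn chondroitin into dermatan sulfate, also differed in spread. Dse stayed within 0.26, with 9.68 and 9.55 in the TPAC lines and 9.77 and 9.81 in the TPC lines, and Dsel read 7.98 and 6.66 in the TPAC lines and 7.58 and 8.53 in the TPC lines. TCPA18654 was the low line of Dsel, by 0.92.

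Has2 makes hyaluronan, a chain with neither sulfate nor core protein. It read 9.43 in K459 and 6.55 in TCPA18654, against 6.56 in TPC18645 and 9.39 in TPC20223. The lines formed a high and a low pair, 2.83 apart, with 1 line of each genotype in each pair and at most 0.04 within a pair. The difference between genotypes was 0.02 ± 1.48 SE. Leaving out 1 line in turn moved it between -1.43 and 1.46.

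The sulfotransferases had a median difference of -0.17, with 6 of 7 lower in TPAC, 1 equal and 0 called. Chst11 and Chst12, which sulfate position 4 of N-acetylgalactosamine, stayed within 0.41 and 0.56 over the 4 lines. Chst11 read 9.35 and 9.43 in the TPAC lines and 9.76 and 9.40 in the TPC lines, and Chst12 read 10.21 and 10.55 in the TPAC lines and 10.77 and 10.46 in the TPC lines, so that TPC18645 was highest in both. Chst14, the 4-sulfotransferase of dermatan, read 9.55 and 9.15 in the TPAC lines and 9.61 and 9.88 in the TPC lines. Its genotypes were separated by 0.06, and its difference was -0.40. Chst15, which adds a further sulfate to make the disulfated E unit, followed the pattern of Has2: it read 9.53 and 7.67 in the TPAC lines and 7.79 and 9.43 in the TPC lines, a gap of 1.64 between the pairs and a difference between genotypes of -0.01. That sign is not stable, since the difference was 0.01 both with arrays set to a common median and after cyclic loess. The dim cluster of Ust, the uronyl 2-O-sulfotransferase, read 7.46 and 6.42 in the TPAC lines and 5.91 and 7.97 in the TPC lines, with equal genotype means. The 6-sulfotransferase genes Chst3 and Chst7, also dim, lay between 6.09 and 6.92 and between 5.94 and 6.45.

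The lysosomal breakdown enzymes varied least, with a median range over the lines of 0.55. All 3 had a lower mean in TPAC, with a median of -0.28, and none was called. Arsb, the sulfatase that removes 4-sulfate from chondroitin and dermatan sulfate, read 10.72 and 10.87 in the TPAC lines and 11.04 and 11.27 in the TPC lines. The genotypes were 0.17 apart, and the difference of -0.36 ± 0.16 SE was the one with the smallest p of the members, given above. Ids, the iduronate 2-sulfatase, read 9.99 and 10.61 in the TPAC lines and 10.72 and 10.43 in the TPC lines, and Hexa, the alpha subunit of beta-hexosaminidase, read 10.78 and 11.13 in the TPAC lines and 11.16 and 11.10 in the TPC lines. K459 was lowest for all 3 genes. Without K459 the median of the 3 was 0.00.

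Over the 40 members, TPC20223 was the highest line for 26 (28.1% of all genes) and the lowest for 2, Sdc1 and Agrn (38.8% of all genes). It was the highest by a log2 gap of 1 or more for 12 members, against 4.25% of all genes, and the lowest by such a gap for none, against 2.95%. Of the 12, 10 were cores (Fmod, Ogn, Vcan, Sdc2, Sdc3, Gpc1, Gpc3, Gpc4, Gpc6 and Cspg4) and 2 were enzymes (Xylt1 and Csgalnact1). Just below the limit lay Hspg2, with a gap of 0.89. K459 was the lowest line by 1 or more for 1 member, Fmod (0.331% of all genes), and TCPA18654 for 2, Ogn and Sdc2 (0.0602%). TPC20223 was also the highest line for most fibroblast markers and the lowest for most epithelial markers, as given above. The part of these markers in the values was not tested. Expressed as the deviation from each gene's mean over the lines, the median in TPC20223 was 1.88 for cell surface cores, 0.72 for leucine-rich cores and 0.06 for breakdown enzymes, against -0.04 for all genes.

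**Figure D3:**
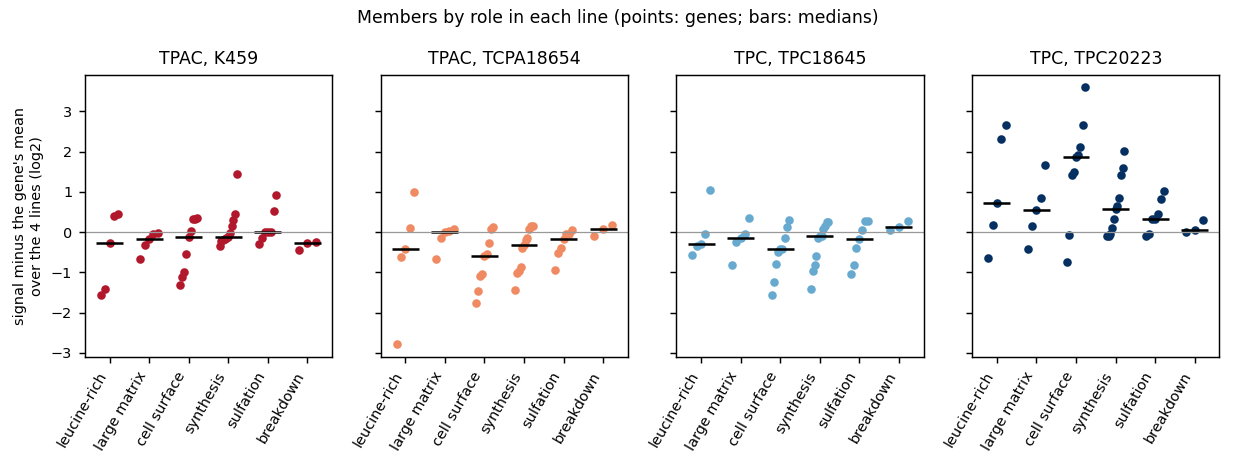
Log2 signal of each member minus that gene's mean over the 4 lines, by role, with 1 panel per line (TPAC lines left, TPC lines right). Points are genes and bars are medians. In TPC20223 the cell surface cores have a median of 1.88 and the breakdown enzymes one of 0.06.

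A further set of members split the lines across the genotypes. K459 and TPC20223 were the highest pair by a gap of 1 or more for 5 members, against 0.978% of all genes: Bgn, Gpc4, Has2, Chst15 and Ust. TCPA18654 and TPC18645 were the highest pair for 1 member, Dcn, against 0.647% of all genes. No member had its TPAC lines or its TPC lines as the highest pair by such a gap, which 0.0401% and 0.00502% of all genes did. Over the 40 members the range over the 4 lines was at least 2 for 15, against 5.53% of all genes, and at least 1 for 22, against 15.9%. The median range was 2.40 for cores, 0.73 for enzymes and 0.40 for all genes.

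TCPA18654 and TPC18645 differ in genotype but gave nearly the same signals for most genes. Of the 54 genes (0.271%) that differed by a log2 difference of 1 or more, 2 were members. Ogn was 2.49 units lower in TCPA18654 than in TPC18645 (6.12 against 8.61), and this was the difference of largest size among all 19938 genes. Sdc2 differed by -1.27 (8.26 against 9.53), and Dsel by -0.92 (6.66 against 7.58). Of the 107 measured genes of the related lists described at the end, 3 also differed by at least 1: the dim Aspn by -1.21, Sulf2 by -1.11 and Sulf1 by -1.05. Ctrb1 and Cpb1, pancreatic acinar enzyme genes, were also lower in TCPA18654 than in TPC18645, with 7.03 against 8.11 and 5.79 against 6.80. For both, TPC18645 was the high line, by 1.06 and 0.87, and K459 the lowest, and Cpb1 is dim. The part of these acinar genes was not tested. With 1 array per line these differences have no replicate check.

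Several proteoglycan genes lie next to each other, and neighbours were set side by side. On chromosome 13 the order is Ecm2, Aspn, Omd and Ogn, all leucine-rich genes. Of these Ecm2, Aspn and Omd are dim, so their differences between lines with low signals are less certain than that of Ogn. Aspn, the gene of asporin, read 5.89 and 4.57 in the TPAC lines and 5.78 and 10.42 in the TPC lines, and Omd, the gene of osteomodulin, read 6.92 and 5.94 in the TPAC lines and 6.75 and 7.90 in the TPC lines. For Aspn, Omd and Ogn alike, TCPA18654 was the lowest and TPC20223 the highest line. TCPA18654 minus TPC18645 was -0.34 for Ecm2, -1.21 for Aspn, -0.81 for Omd and -2.49 for Ogn. Outside this run it was 0.01 for Cenpp and 0.00 for Nol8, flanking genes named after their values were seen. TPC20223 minus TPC18645 was 0.88 for Ecm2, 4.64 for Aspn, 1.15 for Omd and 2.95 for Ogn. Flanking genes were also higher in TPC20223, by 0.89 for Cenpp, 0.16 for Nol8 and 0.78 for Iars beyond it. On chromosome X, Gpc4 and Gpc3 are neighbours, and TPC20223 minus TPC18645 was 4.23 for Gpc4 and 4.84 for Gpc3. It was 0.07 for the dim Ccdc160 and 0.26 for Phf6, the next genes beyond Gpc3, and -0.34 for Hs6st2 on the other side. K459 parted the pair, with Gpc4 at 9.35 and Gpc3 at 5.97, which is 1.82 above and 0.27 below TCPA18654. Outside TPC20223 Gpc3 read between 5.97 and 6.24, as low as dim members such as Chst7, so the 0.27 is not read as a direction.

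Next to Dcn on chromosome 10 lie Lum, Kera and Epyc, all dim, whose signals had ranges over the lines between 0.11 and 0.45. The range of Dcn, which is not dim, was 2.46. Whether clusters this dim could show a difference between lines was not tested. Prelp, next to Fmod on chromosome 1, had the line order of Fmod, with 7.26 and 8.25 in the TPAC lines and 8.56 and 9.75 in the TPC lines. Hapln1, which links hyaluronan to versican and adjoins Vcan on chromosome 13, is dim by its mean. It read 5.25 and 5.04 in the TPAC lines and 5.03 and 9.62 in the TPC lines. The dim cluster of Gpc5, next to Gpc6 on chromosome 14, lay between 5.82 and 6.09 in all lines.

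**Figure D4:**
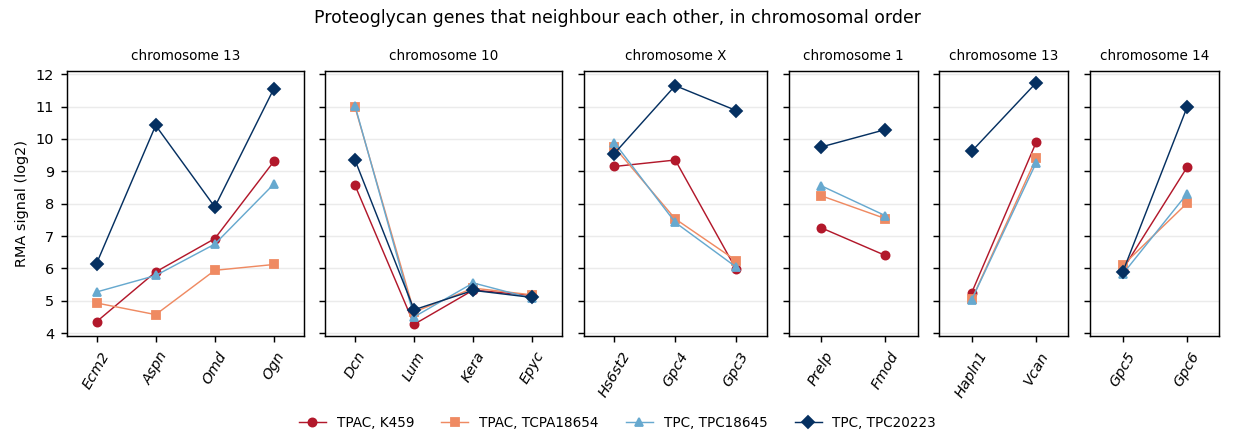
RMA log2 signal of proteoglycan genes that neighbour each other, in chromosomal order, in the TPAC lines (red circles and orange squares) and the TPC lines (blue triangles and dark diamonds). Lines join the values of 1 cell line, and only points of the same gene can be compared. Gpc4 and Gpc3 are both high in TPC20223, at 11.65 and 10.88, and Ogn is low in TCPA18654, at 6.12.

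The rest of the pathway was read through 6 related lists, of which 107 of 113 genes were measured. None of these genes was called, and 2 of the 107 had an unadjusted limma p under 0.05, Hs6st1 and Gnpnat1, against 0.782% of all genes. Of 24 other proteoglycan cores, 16 were lower and 8 higher in TPAC, with a median of -0.24. Aspn had the lowest difference, -2.87, and next came Ptprz1, a receptor phosphatase that carries chondroitin sulfate, with 6.39 and 4.27 in the TPAC lines and 4.39 and 10.30 in the TPC lines. Both are dim by their mean signal. TPC20223 was the highest line by 1 or more for 8 of the 24, against 4.25% of all genes. Of 28 linker and heparan sulfate enzymes, 20 were lower and 8 higher, with a median of -0.21. Hs3st1, a 3-O-sulfotransferase, read 10.08 and 8.04 in the TPAC lines and 8.23 and 7.30 in the TPC lines, and Sulf2, which removes 6-sulfates outside the cell, read 9.88 and 9.11 in the TPAC lines and 10.22 and 11.29 in the TPC lines. Hs6st1, a 6-O-sulfotransferase, read 9.46 and 9.42 in the TPAC lines and 9.94 and 10.22 in the TPC lines (difference -0.64 ± 0.16 SE, limma adjusted p = 0.989).

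The genes that supply sugar and sulfate donors had mostly higher means in TPAC, with 13 of 18 higher, 4 lower and 1 equal, and a median of 0.13. Slc26a2, the sulfate transporter whose loss causes undersulfated cartilage, read 11.58 and 10.59 in the TPAC lines and 10.28 and 8.77 in the TPC lines. Its genotypes did not overlap, and its difference was 1.56 ± 0.67 SE. Gnpnat1, of the UDP-N-acetylglucosamine pathway, had a difference of 0.37 ± 0.13 SE (limma adjusted p = 0.989), and Gfpt2, at the entry of that pathway, read 7.71 and 9.94 in the TPAC lines and 9.85 and 9.57 in the TPC lines. TPC20223 was the lowest line by 1 or more for 4 of the 18 genes, against 2.95% of all genes. Besides Slc26a2 these were Ugdh, which makes UDP-glucuronic acid, and the nucleotide sugar transporters Slc35d1 and Slc35d2, all 3 named after their values were seen. Ugdh read 12.16 and 12.87 in the TPAC lines and 12.64 and 11.01 in the TPC lines. These 4 genes are listed because TPC20223 was low for them. Over the 18 genes TPC20223 was the lowest line for 10 (38.8% of all genes) and the highest for 2 (28.1% of all genes). The latter were Ugp2 and Bpnt2, also named after their values were seen.

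The remaining lists held breakdown, hyaluronan and protease genes. Of 14 other breakdown enzymes, 9 were lower and 5 higher in TPAC, with a median of -0.03. Sgsh, a heparan sulfatase, had a difference of -0.40, and Sumf1, which activates sulfatases, one of -0.31. Of 14 hyaluronan genes, 9 were higher and 5 lower, with a median of 0.03 that was -0.14 without the dim genes. Hapln1 had a difference of -2.18 and Cemip, which cleaves hyaluronan, one of -1.53, with 7.82 and 7.64 in the TPAC lines and 7.71 and 10.81 in the TPC lines. Of 9 ADAMTS proteases that cut proteoglycans, 7 were lower and 2 higher, with a median of -0.21. Adamts4 read 7.32 and 7.22 in the TPAC lines and 7.25 and 8.67 in the TPC lines. The dim Adamts15 read 6.73 and 6.62 in the TPAC lines and 6.76 and 6.03 in the TPC lines.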

How the data were processed

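Each of the 4 lines was run on 1 Affymetrix Mouse Gene 1.0 ST array. The authors deposited log2 signals made by RMA, which corrects background, sets arrays to a common distribution and summarises probes, and Affymetrix Expression Console 1.4 is credited to the submitters' processing notes. The genome build, filters and array batches are not given in the sources. Of 28941 transcript clusters, 21789 carried 1 symbol, 1621 several and 5531 none, and 21698 were found by Entrez number in the RefSeq table (GRCm38.p6) with 0 changes of symbol. The brightest cluster stood for each of 19938 genes. Only Arsb among the members had more than 1 cluster.

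A two-sided limma fit (version 3.58.1, R 4.3.3; lmFit, eBayes) compared TPAC with TPC, with p-values adjusted by Benjamini-Hochberg over the 19938 genes and the thresholds of the study's array comparison. Single lines were described by their log2 gap to the next line, without a test. With 1 line left out, the lone line is assumed to vary as the lines of the other genotype do. The fit was tested on simulated data, and the share of simulated differences it found at the spread of these lines is not given here. The members, lists and tests were chosen with earlier results of these data known. Named were all members, the 2 genes of each related list with the largest difference and genes used as checks, and any other was chosen after its values were seen. Trp53 was not analysed here. The number of arrays limits the precision.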

Additional observations from a re-analysis of the deposited data

How the results depend on the processing

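0 genes were called in either direction by limma after scaling arrays to a common median or by cyclic loess, averaging clusters, dropping dim genes, fitting an intensity trend, fitting robustly, setting no limit on the difference or with each line left out in turn, and 0 by the methods' test after adjustment. The methods' test was a two-sided t test with equal variances. The study lists two-sided t tests among its statistics but names no test for TPAC against TPC arrays. At an unadjusted p under 0.05, limma gave 38 higher and 46 lower in TPAC, and the methods' test 8 higher and 7 lower. The lowest adjusted limma p of a member over the alternatives was 0.0913, for Gpc3 without TPC18645, where TPC20223 alone stood for TPC. No paired analysis was possible because the labels give the lines no shared replicate numbers.

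Without the dim genes the median difference was -1.20 for leucine-rich cores and -0.82 for large matrix cores. With 1 line left out in turn it ran from -0.80 to -0.66 for leucine-rich secreted cores, -0.70 to 0.10 for large matrix and basement membrane cores, -2.415 to -0.11 for cell surface cores, -0.80 to -0.14 for chain synthesis, -0.475 to 0.09 for sulfation, -0.435 to 0.00 for breakdown and -0.75 to -0.14 for all members. At gaps of 0.58 and 2, K459 was lowest for 3 and 0 members, TPC20223 was highest for 6 at the gap of 2, and TPC20223 was lowest for 1 at 0.58, which was Sdc1.

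Of 40 members, 15 had a lower mean in TPAC with each line left out in turn, 0 had a higher mean in all these settings, and 14 turned without TPC20223. In another setting 2 turned, Ncan to 0.01 with a common median and Chst15 to 0.01 with a common median and 0.0058 with cyclic loess. With 1 line left out in turn, the log2 difference of the 23 members that turned ran from -1.62 to 0.80 for Dcn, -0.80 to 0.49 for Bgn, -0.34 to 0.04 for Lum, -2.085 to 0.385 for Vcan, -0.155 to 0.135 for Ncan, -0.70 to 0.10 for Bcan, -0.315 to 0.445 for Agrn, -0.07 to 0.95 for Sdc1, -0.14 to 0.05 for Sdc4, -4.775 to 0.065 for Gpc3, -3.21 to 1.02 for Gpc4, -2.415 to 0.265 for Gpc6, -2.52 to 0.46 for Xylt1, -2 to 0.41 for Csgalnact1, -0.23 to 0.12 for Csgalnact2, -0.325 to 0.035 for Chsy1, -0.20 to 0.74 for Chsy3, -0.445 to 0.045 for Chpf2, -1.425 to 1.455 for Has2, -0.475 to 0.355 for Chst3, -0.42 to 0.09 for Chst7, -0.94 to 0.92 for Chst15 and -0.585 to 0.035 for Ids. For genes of the related lists it ran from -4.97 to 0.94 for Ptprz1, -2 to 0.23 for Gfpt2, -0.82 to 0.02 for Sgsh, -4.475 to 0.115 for Hapln1, -3.08 to 0.02 for Cemip, -1.40 to 0.02 for Adamts4 and -0.085 to 0.645 for Adamts15. Hexa ran from -0.35 to 0.00 and Ust, equal with all lines, from -1.03 to 1.03. The named genes of the related lists not given here kept their direction. The cause of these turns was not tested.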
